A study of Xenopus laevis with 9 samples.

Results

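Whole lenses of Xenopus laevis tadpoles were compared with corneas that had been sham operated, using the 3 lens arrays (L1, L2 and L3) and the 3 sham arrays (S1, S3 and S4) of a series of 9 Affymetrix Xenopus laevis GeneChips. The remaining 3 arrays (R) came from corneas whose lens had been removed, and entered only the shared estimate of the spread between replicates. By the study's account these corneas came from the tadpoles that had given the lenses. Which pools shared tadpoles is not stated, and the fit treats all arrays as independent. All tadpoles were wild type per the labels and at Nieuwkoop and Faber stage 50 when the lens was excised or the eye was operated on. Lenses were excised from tadpoles and put straight into an RNA preservative. For the sham group the outer cornea was cut, raised as a flap and put back with the lens left in place, and the corneas, which held some epidermis, were dissected 3 days later on paper discs. Each array was hybridised with a biotin-labelled, amplified RNA pool of several lenses or corneas, and the sources give differing numbers of tissues per pool. No array of unoperated cornea was analysed here, and the corneas were sampled 3 days after that stage. Tissue, the healing wound, these 3 days and the way of dissection therefore cannot be told apart in any difference below. Each of the 15476 non-control probesets, the sets of oligonucleotides that are read out as 1 value, was tested. The annotation gave 195 of them several gene symbols, so a probeset need not read 1 transcript alone. Binding to related transcripts was not tested. The sets of genes were described through 40 lists that name 1 function or cell type each.

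The vertebrate lens consists of a single sheet of epithelial cells over a mass of fibre cells, which fill with crystallins, join through specialised membrane proteins and at the end of their differentiation break down their organelles. Lens fibres are known for controlling messenger RNAs after transcription and for relying on glutathione to keep their proteins soluble. The larval cornea is a thin stratified epithelium of keratin-rich cells held by desmosomes and tight junctions, with a collagen stroma beneath it. In Xenopus larvae the outer cornea can give rise to a new lens once the old one is removed, so a list of what separates the 2 tissues bears on what a cornea must gain and lose in that process.

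Signal intensities, normalised by the authors with RMA and used here as log2 values, placed the 6 arrays in 2 separate groups. Correlations over all probesets ran from 0.963 to 0.967 between lens arrays, from 0.974 to 0.988 between sham arrays and from 0.676 to 0.714 between the tissues. Array S4 lay nearer the mean of S1 and S3 than the others did to theirs: the variance of S4 minus the mean of S1 and S3 was 0.232 of the variance of S1 minus S3, and the same ratio was 0.688 to 1.34 for the other 5 arrays. In the limma fit with Benjamini-Hochberg adjustment, 3539 probesets (22.9% of those tested) were higher in lens and 4732 (30.6%) were lower at an adjusted p below 0.05. Without S4 these counts were 2688 and 4282. The SDs and adjusted p-values below count S4 as an independent replicate, which was not tested. Differences of at least 3 on the log2 scale were found for 256 probesets higher in lens and for 943 lower. The medians of the arrays were alike, at 2.99 to 3.16, but the upper quartile was 8.99 to 9.86 in lens and 17.5 to 20.4 in sham cornea, so the balance of higher and lower calls depends on the scale: scaling to the 75th percentile moved the median difference of all probesets from 0.02 to 0.99, and scaling to the hybridisation controls moved it to -0.35. Of the 15476 probesets 7063 had a mean below 4 in both tissues, and 22.0% of these dim probesets were called higher in lens against 9.54% lower, with a median difference of 0.24. Of the 8413 brighter ones 23.6% were higher and 48.2% lower. List counts below use 1 probeset for each of 6482 genes with a symbol, of which 1464 (22.6%) were higher and 2314 (35.7%) lower, with a median difference of -0.13. Irrespective of the test, 31.5% of all probesets had every lens array above every sham array and 35.9% every lens array below. These percentages are the background against which each count is to be read.

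Crystallins, the soluble proteins that give the lens its refractive power, showed the greatest separation. All 7 crystallin genes on the list were higher in lens, with a median difference of 9.60. The probeset for cryaa, an alpha crystallin that also acts as a chaperone, read 914, 838 and 878 in L1, L2 and L3 and 1.14, 1.39 and 1.25 in S1, S3 and S4, a difference of 9.45 ± 0.19 (SE) on the log2 scale (adjusted p = 1.3e-08). For the beta crystallin cryba2 the lens arrays read 1742, 1738 and 1790.1 and the sham arrays 1.34, 0.953 and 1.45, a difference of 10.48 ± 0.40. The gamma crystallin crygbl.4 had a lens mean of 2171 ± 72.3 (SD, n = 3) against 3.32 ± 1.68. None of the 13 crystallin probesets with a symbol overlapped between the tissues, against 31.5% of all probesets with every lens array above every sham array. Of the crystallins outside the list, crygdl.30 was at 1052 ± 79.5 in lens and 1.02 ± 0.183 in sham cornea, and cryga.4 was at 12.8 ± 2.34 in lens and 0.894 ± 0.115 in sham cornea. In bulk tissue fewer cells of a type and less RNA per cell cannot be told apart.

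The list of fibre membrane and cytoskeleton genes had 10 of 13 members higher in lens, 1 lower and a median difference of 2.10. It also held birc7, an inhibitor of apoptosis, and tdrd7, a granule protein, and the higher calls include both. The gene lim2, which codes for an integral membrane protein of fibre cell junctions, read 788, 806 and 764 in lens. Its sham values of 0.984, 0.914 and 1.03 were below 1.05, the highest 5th percentile among the lens and sham arrays. No size is therefore given for that difference (adjusted p = 2.6e-08 in the limma fit). The adhesion molecules cdh2 (N-cadherin) and ncam1 and the gap junction protein gja1 (connexin 43) were higher in lens by 3.80, 3.16 and 3.76. The granule protein tdrd7, whose loss causes cataract in humans, was at 118 ± 21.8 in lens and 7.56 ± 5.02 in sham cornea. The spectrin sptan1 and its partner epb41 (protein 4.1) were higher by 1.53 and 1.71. Against the rest, the adducin add3 was lower in lens by 2.21, and vim (vimentin), an intermediate filament protein of both lens and stromal cells, was at 397 ± 39.5 in lens and 397 ± 99.6 in sham cornea with overlapping arrays.

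**Figure D1:**
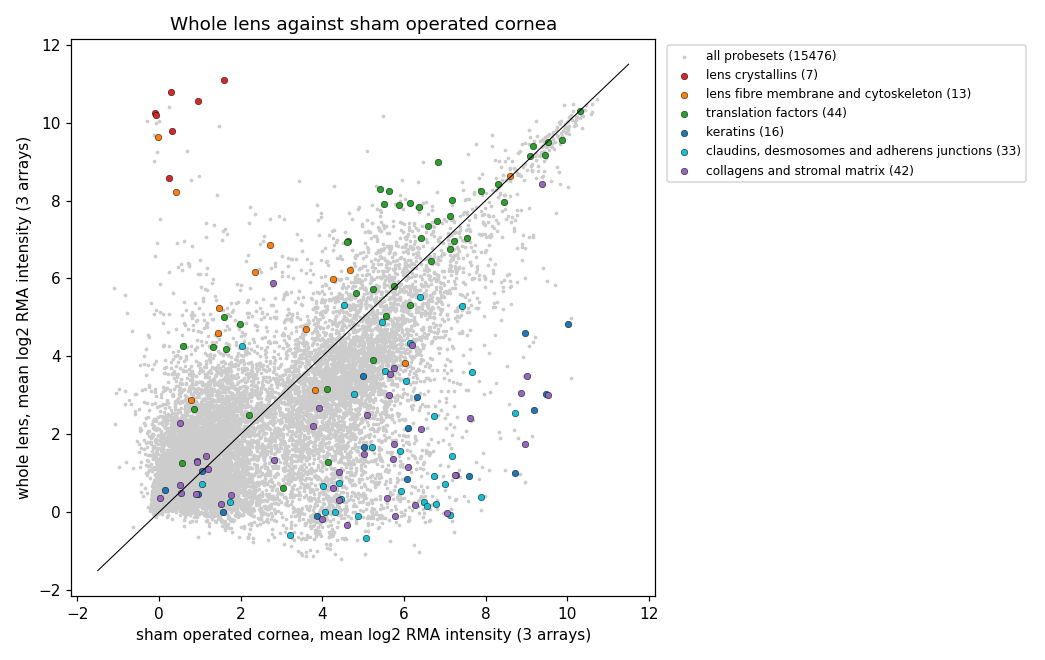
Mean log2 RMA intensity of each probeset in sham operated cornea (x axis, 3 arrays) and whole lens (y axis, 3 arrays), with the members of 6 gene lists coloured and the line of equal level drawn. Crystallins lie at the upper left, 28 of 33 junction genes and 13 of 16 keratins were called lower and lie below the line, and translation factors run along it at high levels and above it at lower ones.

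Beyond crystallins, 26 probesets of 24 genes had a lens mean above 200 and a difference of at least 2. Of these ptgds, a lipocalin that makes prostaglandin D2, read 376, 388 and 336 in lens and 1.55, 1.90 and 1.73 in sham cornea, a difference of 7.73 ± 0.21. The inhibitor of apoptosis birc7 read 336, 256 and 311 against 1.24, 1.32 and 1.42. Both probesets of hao2, a peroxisomal oxidase of hydroxy acids, agreed in direction, with differences of 7.65 and 6.73. The fatty acid binding protein pmp2 was at 1150 ± 64.8 in lens and 44.9 ± 7.65 in sham cornea, and nmt1, which attaches myristate to proteins, at 618 ± 47.5 and 34.3 ± 2.49. No lens array overlapped a sham array for any of these 5 genes, which were picked as called with a difference of at least 2. Among all probesets 31.5% had every lens array above every sham array. The lysosomal galactosidase glb1 read 241, 229 and 237 in lens and 16.02, 15.7 and 12.28 in sham cornea. It was 1 of only 2 members of the list of lysosome, autophagy and apoptosis genes that were higher in lens.

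Lens genes of moderate intensity were taken as probesets with a single symbol, no crystallin, a lens mean of 20 to 200 and a difference of at least 2, called and with all lens arrays above all sham arrays. This class held 153 probesets (1.65% of the 9296 with a symbol) of 133 genes, with a median difference of 3.24. It is a range of probeset intensity and not an order of transcript levels, since probesets differ in how well they bind. The mirror class, with a sham mean of 20 to 200 and a difference of at least 2 the other way, held 713 probesets of 628 genes. The pools differed too: 2320 probesets with a symbol had a sham mean in this range and 1339 a lens mean. The mirror count is given for the main scaling only. Of the 133 genes 51 were on 1 or more of the 40 lists. There were 7 among RNA binding proteins, 6 among translation factors and 6 on the fibre membrane and cytoskeleton list, with birc7 and tdrd7 among the last. A further 3 were among lens and eye transcription factors, 2 among retina and photoreceptor markers and 2 among neuron and nerve markers. The lists of actin regulators, keratins, splicing factors, mitochondrial respiration and the cell cycle had none. These zeros count list members only, and the class held genes that act on actin but are not on the actin list, such as dmtn. The members of the retina list in the class were rom1 and nrl. The arrays of rom1 read 52.7, 84.2 and 24.1 in lens, an order that other photoreceptor genes shared and nrl did not (described with the markers of other tissues). Scaling and offset changed the size of the class, from 62 genes with an offset of 8 added before taking logs to 262 genes after scaling to the 75th percentile.

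Of this class 6 genes had a sham mean below the limit of 1.05, and the 25 genes with the greatest differences among the rest are described here. For a gene with several probesets in the class, the one with the greatest difference is given, whereas the list counts use the brightest one. Other probesets of these genes in the class differed less: celf1 by 5.92, akap2 by 5.21, rbm38 by 5.08 and rbm24 by 4.99. The same held for cdh2 (3.80), msi1 (3.53), nudt4 (3.51), epb41 (3.29) and rps6kb1 (2.54). The probeset annotated to aqp3, an aquaporin that passes water and glycerol, read 113, 128 and 119 in lens and 1.59, 1.18 and 1.30 in sham cornea, whereas another probeset for aqp3 went the other way, at 3.88 ± 0.529 in lens and 68.5 ± 10.5 in sham cornea. The gene akap2, an anchor for protein kinase A, read 127, 115 and 133 against 1.52, 1.43 and 1.61. Among them, proteins that act on RNA included celf1, rbm24, rbm38, msi1, larp1 and eif4a1, with differences of 6.02, 5.48, 5.16, 4.30, 4.47 and 4.32. The kinase rps6kb1, which phosphorylates ribosomal protein S6, read 50.2, 43.0 and 37.2 in lens and 2.13, 2.11 and 2.09 in sham cornea. Membrane and membrane skeleton genes were cdh2, arvcf (a catenin of the p120 family), dmtn (dematin, which bundles actin), epb41, tmem37 and the orphan receptor gprc5b, with differences from 4.41 to 5.93. Transporters, enzymes and proteins related to enzymes were the amino acid transporter slc7a5 (5.65), the ubiquitin-conjugating enzyme ube2d4 (5.68), the hydrolase nudt4 (5.67), ahcyl2 (4.61), prpsap1 (4.53) and oxnad1 (5.48). The Wnt inhibitor sfrp2 read 57.0, 59.2 and 76.3 in lens and 1.75, 3.51 and 2.56 in sham cornea. The homeobox factor prox1, which fibre cells need to elongate in mice, read 28.2, 23.9 and 26.04 against 1.30, 1.53 and 1.21. A second probeset of birc7 (4.28) and the leucine zipper factor nrl (4.98) complete the 25. The class admits no overlap by its definition. Among these 25 genes the closest approach on the log2 scale was that of msi1, whose lowest lens array was at 68.9 and highest sham array at 6.05. Other members of the class came closer, such as slc7a8, with its lowest lens array at 19.0 and its highest sham array at 8.29.

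**Figure D2:**
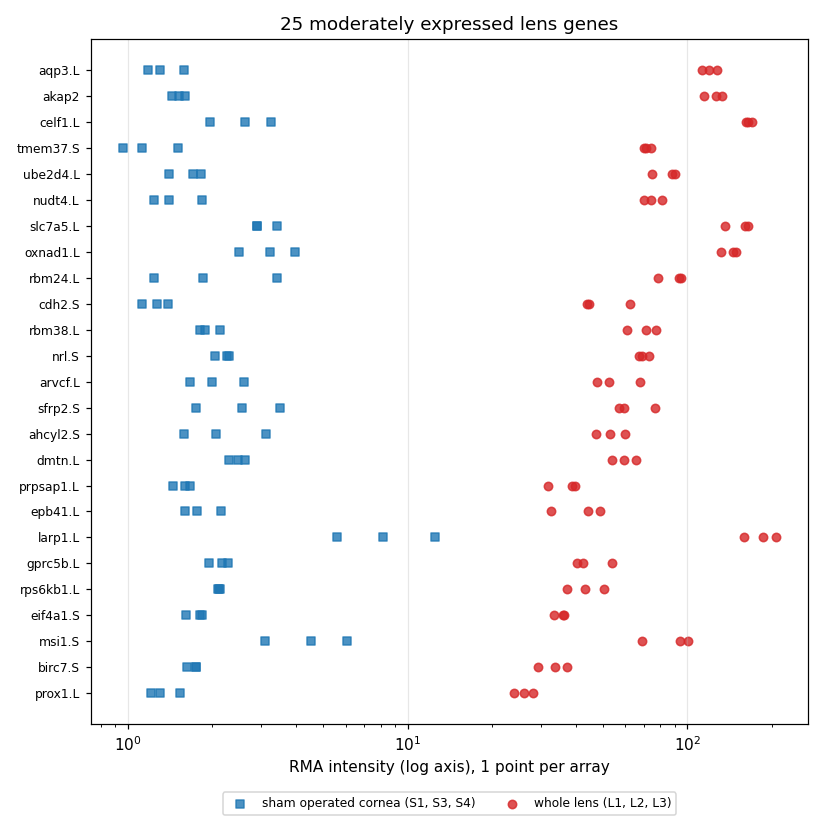
RMA intensity on a log axis of the 25 moderately expressed non-crystallin lens genes with the greatest differences, 1 point for each of the 3 lens and 3 sham arrays. Each gene is shown by its probeset with the greatest difference in the class. No lens point reaches a sham point, which the definition of the class requires, and the sham arrays lie between 0.96 and 12.48.

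RNA binding and messenger RNA granule proteins were split, with 18 of 46 measured genes higher in lens (39.1%), 10 lower and a median difference of 0.29. Dim in both tissues were 11 of the 46, with 5 of the higher calls and none of the lower ones among them. Another probeset was called the other way for 2 of the called genes. The 3 probesets of celf1, an RNA binding protein of splicing and mRNA decay, were all higher in lens: the brightest read 383, 354 and 360 in lens and 8.97, 13.7 and 10.2 in sham cornea, and the other 2 differed by 6.02 and 5.92. The related regulators rbm24 (89.0 ± 8.92 against 2.17 ± 1.13), rbms1 (57.2 ± 6.67 against 4.49 ± 2.69) and elavl1 (12.98 ± 1.56 against 2.61 ± 0.451) were higher too. Going the other way, the decay factors zfp36 and zfp36l1, which bring down AU-rich messages, were lower in lens by 4.61 and 4.89, and the cold-inducible protein cirbp was lower by 1.07, although 1 of its 4 probesets was higher by 1.53. Scaling to the hybridisation controls turned the balance to 12 higher and 14 lower, so the direction of this list as a whole is not fixed, while the values of celf1, rbm24 and rbm38 were called higher under each alternative tried.

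Cytosolic ribosomal proteins differed little between the tissues, with 57 of 63 not passing the test and a median difference of -0.11, close to that of all genes. The exceptions included rpl7a, higher in lens by 2.52, and rpl22l1, lower by 0.91. Ribosomal proteins made up 10 of the 12 brightest non-crystallin genes in lens, the brightest being rpsa at 1558 ± 31.5 against 1700 ± 164 in sham cornea, and none of these 10 passed the test. On S1, S3 and S4 rpsa was the highest reading of the array (1888, 1616 and 1595). Whether differences are compressed near the top of the range was not tested. With scaling to the 75th percentile, which adds close to 1 to every difference, 61 of the 63 were called higher, and with scaling to the hybridisation controls 18 were called lower. Factors that work on the ribosome, by contrast, tended to be higher in lens: 21 of 44 translation factors were higher (47.7% against 22.6% of all genes), 6 were lower, and the median difference was 0.49. The excess of higher over lower calls held under each scaling, down to 15 higher and 12 lower with the hybridisation controls. Of 6 measured subunits of eIF2, which delivers the initiator tRNA, and of its exchange factor eIF2B, a set chosen after the values had been seen, 4 were higher and none lower: eif2b2 read 30.9, 34.0 and 31.3 in lens and 3.50, 2.99 and 2.65 in sham cornea, eif2b4 was higher by 3.68, eif2s1 by 2.35 and eif2s2 by 2.02. The differences of eif2s3 (0.38) and eif2b3 (0.064) did not pass (adjusted p = 0.13 and 0.80 in the limma fit). The GTPase activator of eIF2, eif5, was higher by 2.62. The scaffold proteins eif4g1 and eif4g3 were higher by 2.57 and 2.93. The release factors etf1 and gspt1, which end translation, were higher by 2.89 and 2.84, and abce1, which recycles ribosomes afterwards, by 2.34. The poly(A) binding protein pabpc1 was at 507 ± 34.1 in lens and 115 ± 10.7 in sham cornea. Of the members lower in lens, eif2a, an alternative initiator tRNA factor that is distinct from eIF2, was lower by 2.85 and pabpc4 by 1.35.

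Further sets around protein synthesis were put together after the values had been seen, and their counts are given as a description. Of 16 aminoacyl-tRNA synthetases, which charge tRNAs with amino acids, 11 were higher in lens and 1 (kars1, at a difference of -0.80) was lower, with a median difference of 1.12 and the greatest difference for farsb, at 41.2 ± 5.48 in lens and 3.42 ± 0.277 in sham cornea. Of 51 ribosome biogenesis factors 22 were higher and 8 lower (median 0.62), among them tsr2 (higher by 3.31), mphosph10 (2.84), ltv1 (2.58) and utp6 (2.44), with npm1 lower by 1.12. Of 22 nuclear transport receptors and proteins of the Ran cycle, 11 were higher and 3 lower (median 0.57). The importins ipo5, ipo7, kpna3 and kpnb1 were higher by 2.64, 2.13, 2.43 and 2.12, and kpna2 was lower by 1.84. The higher calls outnumbered the lower ones in all 3 sets under each scaling, and least so with the hybridisation controls, at 6 and 2, 15 and 12, and 8 and 4.

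Among folding proteins, the subunits of the CCT ring were higher in lens and most of those of the endoplasmic reticulum lower. The chaperone list as a whole had 18 of 67 genes higher and 29 lower, and its balance turned to 27 higher and 21 lower after quantile normalisation, to 26 and 23 after cyclic loess and to 36 and 15 after scaling to the 75th percentile. Without these sets, both chosen after the values had been seen, 9 of the other 40 genes were higher (22.5%) and 12 lower (30%), against 22.6% and 35.7% of all genes. All 8 subunits of the CCT chaperonin, the cytosolic ring that folds tubulin and actin, were higher in lens with a median difference of 1.33. The probeset for cct2 read 116, 99.2 and 98.4 in lens and 15.7, 17.7 and 14.1 in sham cornea, and that for cct4 209, 197 and 179 against 44.3, 44.6 and 40.0, although the probeset of the other cct4 homeologue was lower by 1.80. The smallest difference was that of cct8, at 0.54, and 6 of the 8 were called with the hybridisation controls. The constitutive cytosolic chaperone hspa8 was higher by 1.43 and the cyclophilin ppid by 2.82. Folding proteins of the endoplasmic reticulum went the other way: 17 of 19 were lower, 1 higher (dnajb9, by 1.21), and the median difference was -1.80. Here fkbp10, a collagen chaperone, was at 1.29 ± 0.196 in lens and 33.9 ± 3.83 in sham cornea, fkbp11 was lower by 3.55, hsp90b1 by 2.57 and p4hb (protein disulfide isomerase) by 2.31. The reticulum proteins stayed mostly lower under each scaling, with at least 12 called lower and 1 higher.

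Subunits of the proteasome, the protease of ubiquitin-tagged proteins, were higher in lens for 16 of 37 genes (43.2%) and lower for 5, with a median difference of 0.48, and the higher calls outnumbered the lower under each scaling. The core particle subunits were a set chosen after the values had been seen. Of the 13 measured, 8 were higher and none lower (none was lower at an unadjusted p below 0.05 in the limma fit either), led by psmb4 at 188, 175 and 153 in lens against 33.3, 41.7 and 36.8. The other 5, among them psma6 (71.3 ± 8.31 against 72.9 ± 1.78), did not pass. Lower in lens were the assembly chaperone psmg3 (by 2.45) and the immunoproteasome subunit psmb8, counted with antigen presentation, at 0.833 ± 0.245 in lens and 38.9 ± 15.8 in sham cornea. Ubiquitin enzymes had 8 of 58 higher and 28 lower, a balance that turned to 16 higher and 15 lower after cyclic loess and to 26 and 9 with the 75th percentile. Of those higher, ube2d4 read 90.3, 74.6 and 88.0 in lens against 1.40, 1.82 and 1.71, and the deubiquitinases usp10 and usp4 were higher by 3.98 and 2.80.

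The list of lysosome, autophagy and apoptosis genes was lower in lens for 43 of 61 genes and higher for 2, with a median difference of -1.54. The share lower was 70.5%, against 35.7% of all genes and 48.2% of the brighter probesets, and 9 of the 61 genes were dim in both tissues. The proteases ctss and ctsc were lower by 5.35 and 2.79, the peptidase tpp1 by 2.95, the autophagy receptor sqstm1 by 2.15 and casp10 by 3.62. Cathepsin S (ctss) is a protease of antigen-presenting cells and read 0.984, 1.39 and 1.197 in lens against 49.9, 50.5 and 44.5. Of the 14 subunits of the V-ATPase, which acidifies lysosomes, 12 were lower and none higher (median -1.502), though 3 of these genes had another probeset called higher. This set was chosen after the values had been seen. The list stayed lower under each scaling, down to 28 lower and 18 higher with the 75th percentile.

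**Figure D3:**
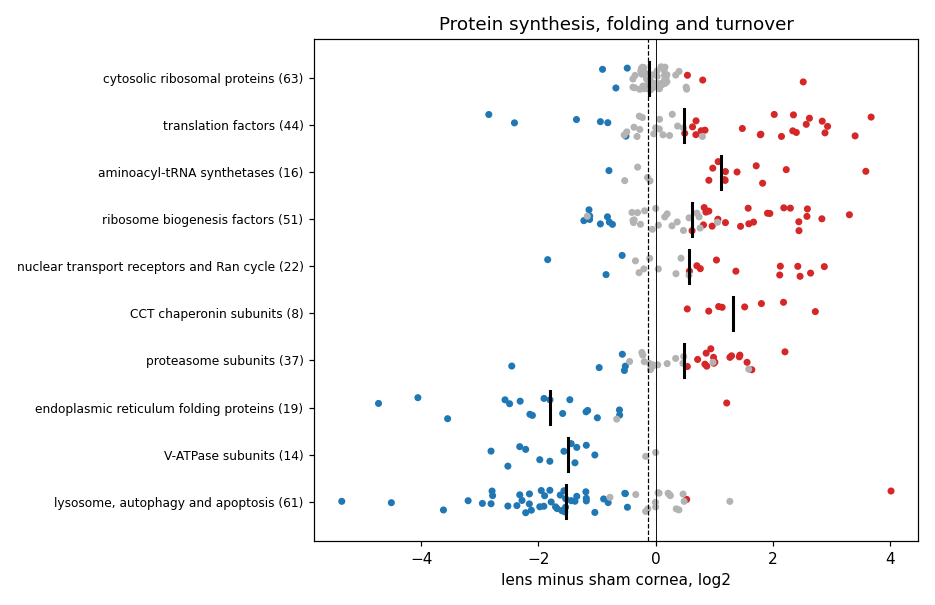
Difference between lens and sham operated cornea (x axis, log2) for each gene of 10 sets of protein synthesis, folding and turnover, with red points called higher in lens, blue points called lower, grey points not called, a bar at each set's median and a dashed line at the median of all genes (-0.13). Ribosomal proteins gather at the median of all genes, the CCT subunits lie to its right and the endoplasmic reticulum, V-ATPase and lysosome sets to its left.

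Microtubule genes and actin genes differed from each other. Tubulins and microtubule proteins had 16 of 41 genes higher in lens and 12 lower (median 0.11), a balance that turned to 13 and 14 with the hybridisation controls. The end-binding protein mapre3 read 46.6, 40.9 and 43.9 in lens against 2.47, 3.00 and 2.51, the beta tubulins tubb2b and tubb6 were higher by 2.56 and 2.28, and the kinesin kif19 by 2.70. The tubulin tubb3, also on the list of neuronal markers, was at 95.7 ± 13.4 in lens and 9.52 ± 5.43 in sham cornea. The tubulin tubb4b was lower by 0.93 and the microtubule destabiliser stmn1 by 1.64. Actin cytoskeleton regulators, in contrast, were lower for 33 of 47 genes (70.2%) and higher for 2, with a median difference of -1.75, and stayed lower under each scaling. The actin-sequestering tmsb4x read 16.9, 36.5 and 18.7 in lens and 564, 599.5 and 609 in sham cornea. The severing protein scin was at 1.02 ± 0.159 in lens and 37.3 ± 2.55 in sham cornea, and tagln2 was lower by 4.84, actn1 by 3.71, cap1 by 2.94 and the profilin pfn1 by 2.45. Of the 5 measured subunits of the Arp2/3 complex, which nucleates branched actin, 4 were lower (arpc2, arpc4, arpc5 and actr3) and arpc1a did not pass. This set, too, was chosen after the values had been seen. The 2 members higher in lens, tpm4 and cnn1, were dim in both tissues, at 3.94 ± 1.16 and 2.60 ± 0.711 in lens. Outside this list, the actin bundling gene dmtn was higher by 4.59.

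The list of glutathione, redox and detoxification genes held more genes lower in lens than higher. Of its 40 genes 21 were lower and 8 higher (median -0.91), a balance that turned to 18 higher and 14 lower with scaling to the 75th percentile. Its 14 genes of glutathione synthesis, peroxidases, reductase and transferases, grouped after the values had been seen, had 6 higher and 6 lower. The 3 genes for making glutathione were higher: gss, the last enzyme of the pathway, read 32.1, 28.7 and 32.9 in lens and 2.47, 2.48 and 2.47 in sham cornea, and gclm and gclc, the subunits of the first and rate-limiting enzyme, were higher by 2.64 and 1.72. The peroxidases gpx1 and gpx3, which spend glutathione on peroxides, were higher by 3.60 and 2.40, whereas gpx4 did not pass (difference -0.32). The reductase gsr, which regenerates glutathione, was lower by 3.03. Of 7 transferases, which attach glutathione to other compounds, 5 were lower, gstt1 by 4.85, and gstp1 was higher by 1.90. Outside the glutathione genes, park7 was higher by 1.74 and the thioredoxin txn and the peroxiredoxin prdx1 were lower by 4.39 and 2.42. The aldehyde dehydrogenases aldh1a1, aldh3a2 and aldh2 were lower as well, and aldh1a1, a soluble protein that accumulates in the cornea of several vertebrates, was at 41.8 ± 7.58 in sham cornea and within the lowest 5% of probesets in all lens arrays.

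In sugar metabolism, single steps differed more than the list, which had 9 of 35 genes higher and 15 lower, a balance that turned to 14 and 10 after quantile normalisation, 15 and 9 after cyclic loess and 19 and 6 with the 75th percentile. The glucose transporter slc2a2 read 28.3, 30.4 and 27.9 in lens against 1.87, 2.64 and 2.36. Lactate dehydrogenase ldha, which the lens uses to make lactate, read 82.3, 79.3 and 76.5 against 4.30, 11.7 and 7.27, and pgk1 and eno1 were higher by 1.80 and 1.38. Lower in lens were gpi (by 2.89), the regulators pfkfb1 and pfkfb4 (2.74 and 3.16) and the pentose phosphate enzymes tkt and taldo1 (1.97 and 1.202). Mitochondrial respiration had 6 of 51 genes higher and 22 lower, with the opposite balance after quantile normalisation (17 and 13) and cyclic loess (20 and 12) and with the 75th percentile (28 and 7). The named subunits cox4i2 and atp5mc1 were lower by 3.98 and 3.25, and those higher, led by ndufb8, did not exceed 0.996.

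Of 28 lens and eye transcription factors 11 were higher and 8 lower (median 0.48), with 14 dim in both tissues. The balance was 8 and 8 without L2 and 9 and 9 with the hybridisation controls. Besides prox1, sox3 read 31.0, 39.6 and 31.5 in lens against 4.44, 1.35 and 2.19, and eya3, a phosphatase of the eye gene network, was higher by 2.10. The factors zeb2 and msx2 were higher at lower intensity, by 1.98 and 1.70. Lower in lens were tfap2a and tfap2b, which mark surface ectoderm, at 7.43 ± 1.43 and 0.915 ± 0.222 in lens and 76.96 ± 6.18 and 22.2 ± 2.42 in sham cornea, and otx1, lower by 3.87. The epithelial factor grhl1, counted among junction regulators, read 1.15, 1.27 and 1.15 in lens and 85.3, 104 and 83.8 in sham cornea.

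Signalling lists gave mixed counts at mostly low intensity. FGF and receptor tyrosine kinase genes, a pathway that drives fibre differentiation in vertebrates, were higher for 18 of 40 (45%) and lower for 8 (median 0.50), with 17 of the 40 dim in both tissues, and remained more often higher than lower under each scaling. The receptors fgfr3 and fgfr4 were at 11.1 ± 3.12 and 4.70 ± 0.87 in lens and 1.75 ± 0.137 and 0.921 ± 0.0148 in sham cornea, flt1 read 8.40, 7.33 and 8.83 against 0.603, 0.746 and 0.649, and etv4 and etv1, transcription factors induced by FGF signals, were higher by 2.42 and 2.26. The receptor fgfr2 was lower by 1.72, the adaptor grb2 by 2.02 and the phosphatase dusp1 by 3.67. In the Wnt list 20 of 65 genes were higher and 21 lower, and 35 were dim in both tissues. The Wnt balance turned after quantile normalisation (21 and 18), with the 75th percentile (42 and 10) and without L2 (18 and 17). The secreted inhibitors sfrp2 and sfrp1, the ligands wnt2b and wnt7b and the receptor fzd7 were higher. Of 5 fzd7 probesets 4 had differences of 1.90 to 3.75. The fifth was at 2.13 ± 0.602 in lens and 1.03 ± 0.0505 in sham cornea, a sham mean below the limit of 1.05. In contrast, the receptor kremen2 and the polarity protein vangl1 were lower by 4.29 and 3.93. In the BMP and TGF-beta list 13 of 47 genes were higher and 10 lower, a balance that became 10 and 14 with the hybridisation controls. The extracellular BMP modulator bmper read 12.35, 13.8 and 9.31 against 1.32, 1.34 and 1.47 and tgfb2 was at 4.55 ± 1.44 against 0.926 ± 0.0744, while the stromal genes ltbp1, fstl1 and grem1 were lower by 5.24, 4.97 and 3.97.

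Transport and lipid genes showed opposite members of the same families. The amino acid exchanger slc7a5 read 160, 165 and 136 in lens against 3.40, 2.90 and 2.88, and slc38a2 and slc7a3 were higher by 1.44 and 1.17. The amino acid carrier slc43a2 was lower by 6.42, and slc7a7 was at 0.458 ± 0.0375 in lens and 12.15 ± 1.89 in sham cornea. In all, 11 of 35 nutrient carriers were higher and 10 lower (7 and 12 with the hybridisation controls). Among ion pumps and channels 8 of 41 were higher and 15 lower (20 and 9 with the 75th percentile): the sodium pump subunit atp1b3 was higher by 1.60 and atp1b2 lower by 4.87, the epithelial sodium channel subunit scnn1b was lower by 4.37 although a dim probeset of its other copy was higher by 0.93, and slc4a11, a transporter of the corneal endothelium in mammals, read 1.26, 1.22 and 1.44 in lens against 51.8, 71.3 and 49.6. In lipid synthesis 13 of 37 were higher and 11 lower (10 and 12 with the hybridisation controls). The desaturase fads2 and the sterol enzymes cyp51a1 and idi1 were higher by 2.74, 1.69 and 1.65, and the sphingolipid enzymes sptlc1, sptlc2 and degs3 lower by 2.72, 2.29 and 3.67.

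**Figure D4:**
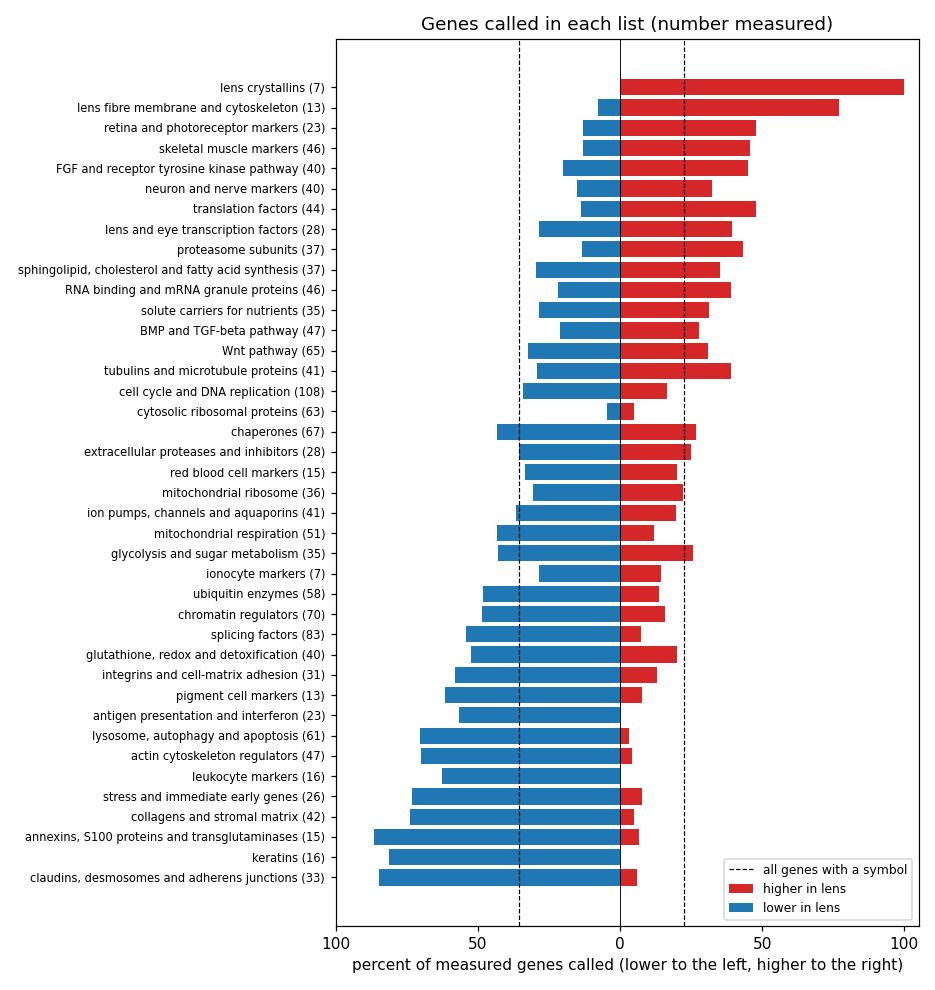
Percentage of measured genes called higher in lens (to the right) and lower (to the left) for each of the 40 lists, ordered by the median difference, with dashed lines at 22.6% and 35.7%, the shares among all 6482 genes with a symbol. Crystallins and fibre genes reach furthest to the right, and junctions, annexins, keratins and collagens furthest to the left.

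Epithelial genes made up the corneal side. Of 16 keratins 13 were lower in lens and none higher (median -3.96). The type II keratin krt62 read 9.99, 11.46 and 4.83 in lens and 669, 778 and 705 in sham cornea, and krt7 read 2.12, 2.74 and 1.42 against 409, 426 and 430. Of 33 genes of claudins, desmosomes and adherens junctions 28 (84.8%) were lower and 2 higher (median -4.08). The tight junction protein cldn1 was lower by 7.49 and epcam by 6.18 (8.18 for another probeset), and cdh1 (E-cadherin) read 0.579, 0.605 and 0.708 in lens, within the lowest 5% of probesets, against 40.3, 29.3 and 31.2. The cadherins of the 2 tissues were thus opposite, cdh2 being higher in lens and cdh1 in cornea. The 2 junction genes higher in lens were cldn5, an endothelial claudin, by 2.22, and ctnna1 by 0.79, the latter with another probeset called lower by 0.74. Annexins, S100 proteins and transglutaminases, of which several bind membranes in a calcium-dependent way, were lower for 13 of 15 (median -3.26). The galectin lgals3 read 8.24, 8.57 and 8.60 in lens against 279, 280 and 261, and anxa2 62.6, 65.1 and 66.5 against 489, 528 and 482, while anxa6 was higher in lens by 1.996. All 3 lists kept this direction under each alternative tried. Of the 12 genes with the greatest measured differences toward sham cornea, those not otherwise described were ppp1r13l (-7.56), anxa1.1 (-7.39), xb5953580 (-7.19), col1a2 (-7.19), abracl (-6.97), krt12.2 (-6.92) and fucolectin (-6.76).

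Stromal matrix was lower in lens for 31 of 42 genes (73.8%) and higher for 2 (median -3.001). The fibrillar collagen col1a1 was at 8.38 ± 3.29 in lens and 744 ± 128 in sham cornea. The corneal proteoglycan lum (lumican) read 1.09, 0.939 and 0.912 in lens against 109, 144 and 146, and fn1 (fibronectin) 13.02, 12.06 and 9.13 against 380, 749 and 490. The basement membrane protein nid2 was higher in lens by 3.09 and vtn (vitronectin) by 1.78. For both fn1 and lum S1 was the lowest sham array. Integrins and cell-matrix adhesion genes were lower for 18 of 31 and higher for 4, a balance that turned to 7 lower and 10 higher with the 75th percentile. Of these fermt1 was lower by 4.63 and pxn by 3.74, and itgb5 was higher by 1.53. Among secreted proteases and inhibitors, 10 of 28 were lower and 7 higher (8 and 17 with the 75th percentile): serpinb5 (maspin) was lower by 5.54 and mmp7 by 4.06, mmp28 was at 0.734 ± 0.103 in lens and 18.9 ± 1.503 in sham cornea, and timp3, an inhibitor of matrix proteases, was higher by 2.82.

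Immune and stress genes were also on the corneal side. Of 23 antigen presentation and interferon genes 13 were lower in lens and none higher (median -1.38), including b2m and cd74, the partners of class I and class II molecules. The latter read 0.790, 0.815 and 1.05 in lens against 79.2, 67.2 and 62.5. Of 16 leukocyte markers 10 were lower and none higher, with mpo, the peroxidase of myeloid granules, at 1.34 ± 0.174 in lens and 103 ± 8.95 in sham cornea, and the pan-leukocyte gene ptprc at 0.627 ± 0.0432 and 5.16 ± 2.09. Summed over the 16 markers the lens arrays held 26.6 to 36.2 and the sham arrays 251 to 292. Of 26 stress and immediate early genes 19 were lower and 2 higher (gadd45a by 2.39 and egr2 by 0.90), with a median of -2.23. The early growth response gene egr1 read 1.44, 1.95 and 3.35 in lens against 224, 344 and 264, junb was lower by 5.77, and klf2 and cebpb were at 0.808 ± 0.131 and 0.638 ± 0.141 in lens and 34.7 ± 5.02 and 22.4 ± 4.61 in sham cornea. Since the corneas were wounded 3 days before and lifted onto paper, and the lenses were not, these differences cannot be assigned to the tissue.

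Genes of the nucleus gave weaker and scale-dependent counts. Cell cycle and DNA replication had 37 of 108 genes lower in lens and 18 higher, with 59 dim in both tissues, and the counts turned to 16 and 54 with the 75th percentile. Among 35 mitotic genes, chosen after the values had been seen, 18 were lower and 6 higher (9 and 13 with the 75th percentile): the kinesins kif11 and kif23, the kinase aurkb and cdk1 were lower by 2.95, 2.55, 2.56 and 1.96, and of the 6 higher ones 3, with ccnb1 at 2.59 ± 0.618 in lens, were dim in both tissues. The proliferation marker mki67 was at 0.985 ± 0.0118 in lens and 3.75 ± 0.877 in sham cornea. It was thus dim in both tissues as well, with a lens mean below 1.05. Splicing factors were lower for 45 of 83 and higher for 6, but the counts became 19 and 18 after quantile normalisation and 17 and 21 after cyclic loess. Chromatin regulators were lower for 34 of 70 and higher for 11, and the counts became 15 and 18 after quantile normalisation. The remodeller chd4 was higher by 2.47, and the nucleosome binding protein hmgn2 was lower by 2.43.

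Markers of other tissues were present in both samples. Of 23 retina and photoreceptor genes 11 were higher in lens and 3 lower, but 5 were called higher without L2, and 4 without L1, without S3 or without S4. The photoreceptor disc protein rom1 read 52.7, 84.2 and 24.1 in L1, L2 and L3, prph2 16.5, 30.4 and 4.48, the rod transducin gnat1 14.8, 25.9 and 4.31, and the arrestin sag 8.59, 23.4 and 2.79, with none above 1.30 in sham cornea. These 4 genes thus shared 1 order, L2 highest and L3 lowest. The leucine zipper factor nrl, placed on the list as a gene known from rods, did not share this order and read 73.0, 68.8 and 67.0. Which cells carried nrl was not tested. Without L2, rom1 and nrl were still called (adjusted p = 5.7e-03 and 2.3e-05), whereas prph2, gnat1 and sag were not (0.082, 0.085 and 0.12). The last 3 were also lost without L1, S1, S3 or S4, and not without L3. The sum over the retina list was 236, 333 and 140 in the lens arrays and 54.7 to 61.3 in sham cornea. The pigment genes pmel (40.6, 63.1 and 14.1) and tyrp1 (5.22, 9.44 and 0.848) followed the same order in lens, and both were higher in sham cornea. Haemoglobins followed L2 alone: hba3 read 19.2, 257 and 36.6 in lens and 1153, 545 and 891 in sham cornea. The keratin krt12.4 was also highest in L2, at 11.6 against 4.23 and 4.76. The part that adhering tissue plays in these values was not tested.

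**Figure D5:**
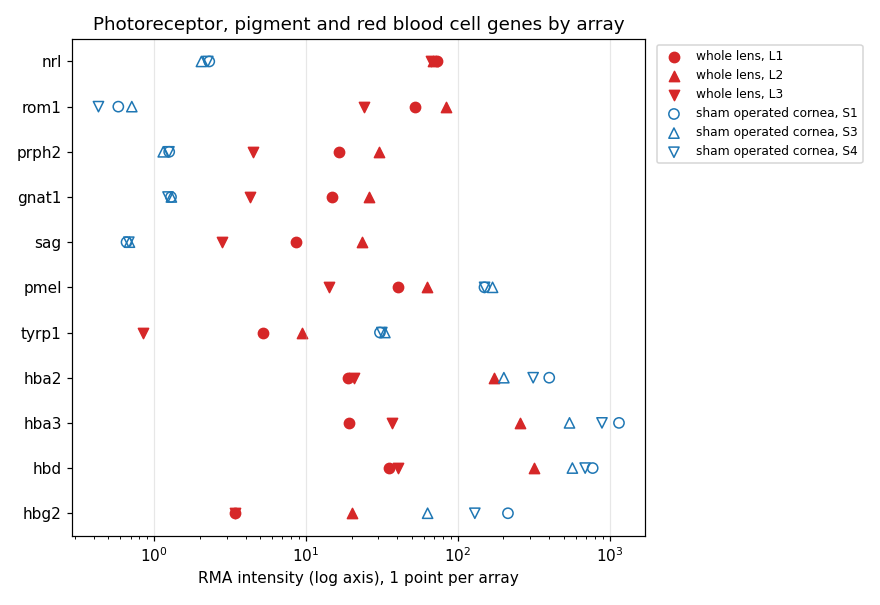
RMA intensity on a log axis of photoreceptor, pigment and red blood cell genes, with filled red symbols for L1 (circle), L2 (upward triangle) and L3 (downward triangle) and open blue symbols for S1, S3 and S4. L2 is the highest lens array for all genes shown but nrl, which stays between 67.0 and 73.0.

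Skeletal muscle markers were called higher in lens for 21 of 46 genes and lower for 6, but 34 of the 46 were dim in both tissues and 15 of the 21 higher ones were among these. With the filter that drops such probesets, 6 were higher and 4 lower. Above that level were tnni1, a slow muscle troponin, at 18.18 ± 6.28 in lens and 1.39 ± 0.154 in sham cornea, and casq2 at 13.4 ± 1.09 and 1.36 ± 0.297, while the muscle creatine kinase ckm was at 2.68 ± 1.46 and 89.2 ± 4.38 and the skeletal actin acta1 was at 1.13 ± 0.191 and 1.03 ± 0.108. Neuron and nerve markers had 13 of 40 higher and 6 lower, with 24 dim in both. Besides tubb3 and ncam1, which lens cells may also carry, ina was at 6.17 ± 3.58 against 0.926 ± 0.0952, and syt1 and gap43 were lower by 5.11 and 2.34.

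Xenopus laevis is an allotetraploid with 2 copies (homeologues, marked L and S) of many genes, and the arrays often held several probesets for a gene. Of 2020 genes with 2 or more probesets, 163 had 1 called higher in lens and another called lower. The aqp3 probesets described above were among them. For ifrd2 the 2 probesets carried the same symbol and mirrored each other, at 27.9 ± 1.998 in lens and 1.55 ± 0.132 in sham cornea for the first and 1.83 ± 0.331 and 31.4 ± 2.49 for the second. The superoxide dismutase sod1 was higher in lens by 2.68 for one copy and lower by 3.58 for a probeset of the other. The glycolytic aldoa was at 307 ± 0.842 in lens and 174 ± 18.24 in sham cornea for the L copy and at 38.3 ± 7.75 and 225 ± 13.8 for the S copy. Whether the copies or the probesets differ was not tested. These pairs were chosen after their values had been seen.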

How the data were processed

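Amplified RNA from pools of lenses or corneas was labelled with biotin and hybridised to Affymetrix Xenopus laevis GeneChips by the authors, who normalised the arrays with RMA. The deposited values are linear RMA intensities, of which log2 was taken here, since the deposited table holds intensity and not log2 values. RMA options were not given in the sources used here. Of 15611 probesets 135 controls were left out. Platform annotation gave 9296 probesets 1 symbol, 195 several and 5985 none, and 2 symbols were updated. Homeologues were joined under 1 gene name and the probeset with the highest mean log2 value over the 9 arrays stood for the gene in list counts. All 9 arrays entered 1 limma fit (limma 3.58.1 in R 4.3.3, lmFit and eBayes), with the contrast of lens minus sham cornea, 6 residual degrees of freedom and Benjamini-Hochberg adjustment over 15476 probesets at 0.05. The 3 pools of a group were described as biological replicates, and their number limits the precision. Where the mean of a tissue lay below 1.05, the highest 5th percentile among the lens and sham arrays, values and mostly no difference are given.

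The members and lists were chosen with earlier results of these data known, and the 10 smaller sets, such as the CCT subunits, after the values were seen. Genes could be named where they were among the 6 with the smallest adjusted p of a list in a direction, went against their list, were among the 12 with the greatest differences in a direction, the 25 moderate lens genes or the 12 brightest non-crystallin lens genes, or were close to the lens in the account of the study. Of the 429 genes that met this rule 224 are not named. A further 45 genes named in the results fell outside it and were chosen after their values were seen. Alternatives were other offsets, scalings, filters, fits, array weights, a replicate block and leaving out each array. Scaling to the hybridisation controls was added after seeing the data.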

Additional observations from a re-analysis of the deposited data

How the results depend on the processing

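Of 15476 probesets 3539 were higher and 4732 lower in lens. The higher count became 9121 with scaling to the 75th percentile (2369 lower), 2036 with the filter on low values, 1815 with scaling to the hybridisation controls and 2092 with a difference of at least 1. The share of calls that were higher, 42.8%, became 53.6% after quantile normalisation, 79.4% with the 75th percentile and 24.0% with the hybridisation controls. With the replicate number as a block, 2444 were higher and 4096 lower. The labels do not say whether the numbers pair the samples. The deviations of L1 and S1 correlated at -0.04 and those of L3 and S3 at -0.09, and these values cannot decide it. Leaving out 1 array gave 6970 to 7679 called probesets, 2688 to 3242 higher and 4227 to 4437 lower. Of the 40 lists 14 had more genes higher than lower, 14 to 15 without 1 array, 30 with the 75th percentile and 7 with the hybridisation controls. The moderate class of 133 genes had 62 with an offset of 8, 262 with the 75th percentile, 248 after cyclic loess and 124 to 138 without 1 array. Of the probesets of named genes other than crygdl.30, 257 were called, and 251 to 257 without 1 array. The cause of these changes was not tested.

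Higher minus lower genes changed sign with the 75th percentile for glycolysis (13), redox (4), respiration (21), mitochondrial ribosome (16), splicing (27), ubiquitin (17), chaperones (21), integrins (3), proteases (9), red blood cells (2), Wnt (32), cell cycle (38), ion pumps (11), ionocytes (2), chromatin (17) and mitotic genes (4). After quantile normalisation it changed for glycolysis (4), respiration (4), mitochondrial ribosome (8), chaperones (6), Wnt (3) and chromatin (3), and after cyclic loess for glycolysis (6), respiration (8), mitochondrial ribosome (7), splicing (4), ubiquitin (1), chaperones (3) and chromatin (2). With the hybridisation controls it changed for tubulins (-1), RNA binding (-2), BMP (-4), solute carriers (-5) and lipids (-2). Wnt also changed with array weights (1), on leaving out 1 array (-3 to 1, positive without L2 alone) and with the smallest p per gene (2), and ionocytes with the filter (1). Single genes changed sign with the 75th percentile: actr3 to 0.19, gpx4 to 0.66, kars1 to 0.18, psma6 to 0.94 (0.72 after cyclic loess), rpl22l1 to 0.071, rpsa to 0.86 and tubb4b to 0.043.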

Other observations

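Lists not described above gave small or scale-dependent counts. Mitochondrial ribosomal proteins were higher in lens for 8 of 36 genes and lower for 11, with 12 and 4 after quantile normalisation. Pigment cell markers were lower for 8 of 13 and higher for 1, red blood cell markers lower for 5 of 15 and higher for 3, and ionocyte markers lower for 2 of 7 and higher for 1. Of the 6 genes of the moderate class with sham means below 1.05, 3 had the highest lens means. Of these, endoul was at 185 in lens and 1.03 in sham cornea, nif at 122 and 0.973, and lrrn1 at 95.7 and 0.943. These 3 genes were chosen after their values were seen. A further 89 probesets without a single symbol met the values that define the class.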
